A study of Drosophila melanogaster with 6 samples.

Results

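The genes described here are 24 genes of DNA replication and the cell cycle, measured in RNA of entire Drosophila melanogaster larvae of the 1st instar that were mutant or control for Kdm4A, a histone demethylase. They were taken from a list of 36 by gene symbol, and each was read from the probe set that names that gene alone and has the highest mean over the 6 arrays. The whole comparison covered 11983 genes. In the mutant the allele dKDM4A KG04636 stood over ∆dKDM4A. In the control dKDM4A precise KG06436 stood over dKDM4A precise NP0618. Whether KG04636 and KG06436, as the labels write them, are the same insertion is not settled. Each genotype had 3 arrays, labelled as biological replicates 1 to 3, and each array held RNA pooled from 200 larvae raised at 25 °C and collected about 48 after egg laying, a time whose unit the labels do not give. Of the other 12 listed genes, E2f1 was set aside because its probe set also names Torsin, and CycA, Cdk1, stg, dap, polo, aurA, BubR1, Orc6, geminin, Mcm7 and RnrS were not analysed here.

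DNA replication begins at origins bound by the origin recognition complex, where the licensing factor encoded by dup loads the MCM helicase. Cyclin and Cdk pairs then start synthesis, and the E2F and Dp transcription factors, held back by the retinoblastoma protein Rbf, switch on many replication genes ahead of it. In fly larvae most differentiated tissues grow by endocycles, which repeat DNA synthesis without mitosis, while neuroblasts and imaginal cells divide. Replication genes therefore serve both kinds of cell, and genes such as CycB, pim and aurB serve dividing cells.

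All levels below are on the log2 scale of the array signal, so a difference of 1 is a 2-fold change. Their medians lay between 5.29 and 5.37 on the 6 arrays. Kdm4A itself was 3.44, 3.41 and 3.29 in mutant arrays 1 to 3, against 5.18, 5.26 and 5.46 in control arrays 1 to 3, a log2 difference of -1.92 (SE 0.10, limma adjusted p = 0.00174, n = 3 per group). The mean of 6 gut markers lay between 11.7 and 11.9 in the mutant arrays and between 11.5 and 12.4 in the control arrays, and that of 5 muscle markers between 11.1 and 11.2 in the mutant and between 10.7 and 11.3 in the control, all above the upper quartiles of the arrays, 7.83 to 7.91. The mean of 6 germline markers lay between 4.17 and 4.25 in the mutant and between 4.24 and 4.48 in the control, below the array medians.

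The comparison of mutant and control larvae asks which genes differ between these genotypes, and none of the 24 replication and cell cycle genes was called in it. By limma, 19 of 11983 genes, 0.159%, passed an adjusted p under 0.05, and 0 of 24 lies near that share. The adjusted p was 0.998 for each of the 24 genes. At an unadjusted p under 0.05 there were likewise 0 of the 24 genes, against 5.27% of all genes. With the replicate number as a block, which called 98 genes or 0.818%, 0 of the 24 passed and their lowest adjusted p was 0.349. At an unadjusted p under 0.05 the block gave 1 of the 24, CycB, against 11.2% of all genes.

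The 95% confidence intervals of the log2 difference lay within 2-fold in either direction for 23 of the 24 genes, against 11126 of 11983 genes overall. The exception was CycE, whose interval reached from -1.02 to 0.34. For 15 of the 24 the interval lay within 0.5 on the log2 scale, against 8440 of 11983 genes overall.

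The differences ranged from -0.35 for Mcm3 to 0.31 for CycB, with a median of -0.10 over the 24 genes and -0.01 over all genes. In the mutant 19 of the 24 means were lower, against 51.8% of all genes. This count rested on 1 array. Without mutant replicate 3, 10 of the 24 were lower and the median was 0.02.

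**Figure D1:**
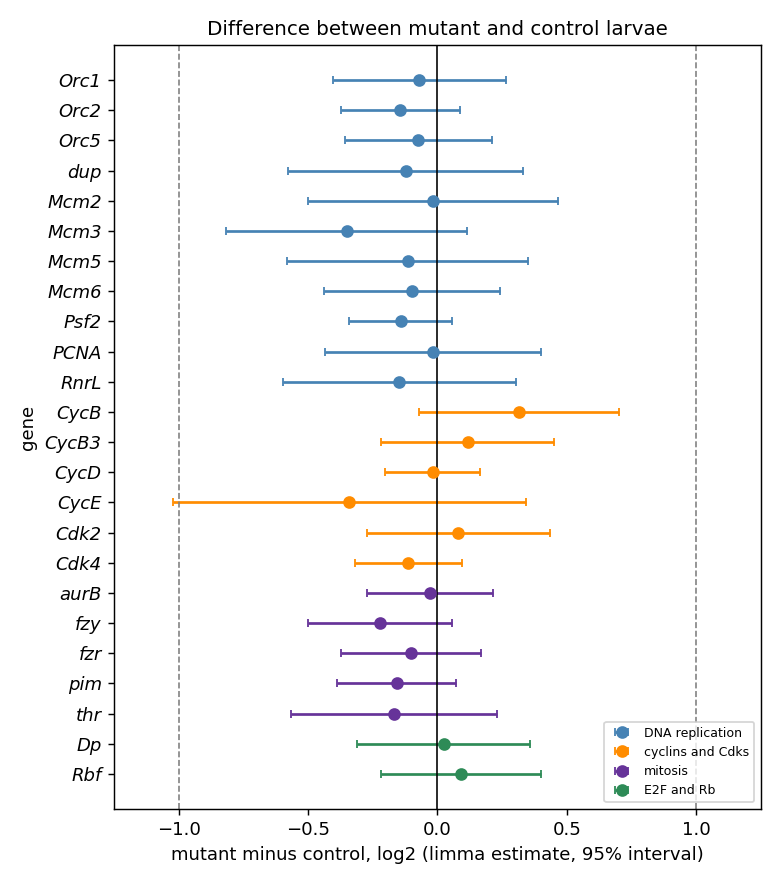
Points are limma estimates of the log2 difference, mutant minus control (3 arrays each), for 24 replication and cell cycle genes, bars are 95% confidence intervals, and dashed lines mark 2-fold. All bars except that of CycE, which reaches -1.02, lie inside the dashed lines, and every bar crosses 0.

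The 11 DNA replication genes shared a pattern across the arrays that the genotype comparison does not show. In each of them mutant array 3 held the lowest of the 6 values, where mutant array 3 was lowest for 17.8% of all genes. After quantile normalization or median centring this held for 10 of the 11. Relative to the mean of the other 5 arrays, mutant array 3 differed by a median of -0.42 on the log2 scale over these genes, with a range from -0.75 for Mcm3 to -0.12 for Psf2, against a median of 0.01 over all genes. The arrays held RNA from whole larvae, so fewer replicating cells and less of these RNAs per cell cannot be told apart. The low values are those of 1 array, so neither can be told apart from a trait of that pool or array.

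The genes of origin recognition were among those with the smaller shifts. Orc1, the largest subunit of the complex, had log2 values of 6.13, 6.22 and 5.83 in mutant arrays 1 to 3, against 6.31, 6.12 and 5.97 in control arrays 1 to 3. The subunit gene Orc2 had 5.23, 5.20 and 5.09 in the mutant, against 5.44, 5.21 and 5.29 in the control. The subunit gene Orc5 had 6.60, 6.36 and 6.19 in the mutant, against 6.47, 6.45 and 6.45 in the control. In all 3 genes the groups overlapped, and mutant array 3 lay 0.11 to 0.17 below the next lowest array. Their differences between mutant and control were -0.07, -0.14 and -0.07 for Orc1, Orc2 and Orc5.

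The licensing gene dup, the fly Cdt1, showed a larger gap. Its log2 values were 7.08, 7.20 and 6.48 in the mutant arrays, against 7.04, 7.09 and 7.01 in the control arrays. Mutant arrays 1 and 2 lay among or above the control values, and mutant array 3 alone lay 0.52 below the lowest of the others. The difference of the means was -0.12 (SE 0.19), with a SD of 0.38 in the mutant and 0.04 in the control.

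The MCM genes encode subunits of the helicase that unwinds DNA at the fork. Mcm2 had log2 values of 7.63, 7.78 and 7.07 in mutant arrays 1 to 3, against 7.35, 7.70 and 7.48 in control arrays 1 to 3. Mcm5 had 6.58, 6.77 and 6.02 in the mutant, against 6.59, 6.64 and 6.49 in the control. In both genes mutant array 2 was the highest of all 6 and mutant array 3 the lowest, so the mutant values surrounded the control values. Mcm6 repeated this order, with 8.01, 8.25 and 7.76 in the mutant, against 7.99, 8.19 and 8.13 in the control. Mcm3 had 7.81, 7.72 and 7.09 in the mutant, against 7.95, 7.88 and 7.85 in the control. All 3 mutant values of Mcm3 were below all 3 control values, but those of arrays 1 and 2 by little. The Mcm3 difference of -0.35 (SE 0.19, adjusted p = 0.998, n = 3 per group, limma) became -0.13 without mutant replicate 3.

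Psf2 encodes a subunit of GINS, which joins the MCM ring to form the active helicase, and was nearly level across the arrays. Its values were 6.55, 6.63 and 6.54 in the mutant, against 6.79, 6.65 and 6.71 in the control. Mutant array 3 was lowest by less than 0.01, and the groups did not overlap, with a difference of -0.14 (SE 0.08). Besides Psf2 and Mcm3, Cdk4 had all mutant values below all control values, which makes 3 of the 24 genes, against 6.23% of all genes.

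PCNA is the sliding clamp that holds DNA polymerase on its template. It had log2 values of 9.25, 9.56 and 8.89 in mutant arrays 1 to 3, against 9.22, 9.35 and 9.17 in control arrays 1 to 3. RnrL, the large subunit of the ribonucleotide reductase that makes deoxynucleotides, had 8.11, 8.37 and 7.67 in the mutant, against 8.13, 8.37 and 8.11 in the control. Both genes thus had the order of Mcm2 and Mcm5, with mutant array 2 highest and mutant array 3 lowest. Their mean differences were -0.02 (SE 0.17) for PCNA and -0.15 (SE 0.19) for RnrL.

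**Figure D2:**
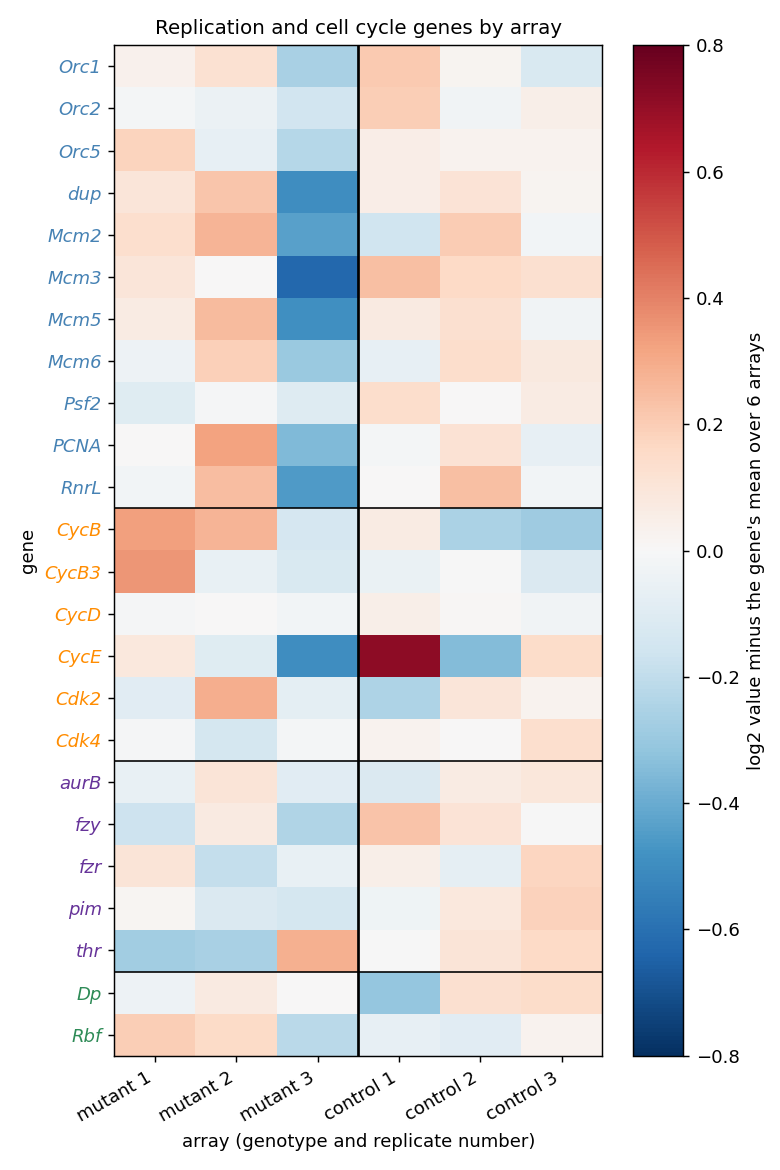
Log2 values of the 24 genes on each array, as the deviation from the gene's mean over 6 arrays (red above, blue below), with mutant arrays left of the black line and control arrays right of it; label colours mark replication (blue), cyclins and Cdks (orange), mitosis (purple), and E2F and Rb (green). The blue column of mutant array 3 runs through the 11 replication genes, while CycE stands out as high in control array 1.

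Set side by side within each replicate number, the replication genes differed between genotypes mainly at number 3. The median log2 difference over the 11 genes, mutant minus control, was -0.01 at number 1, 0.05 at number 2 and -0.37 at number 3. At number 3 all 11 differences were below 0, from -0.76 for Mcm3 to -0.14 for Orc1, where 54.6% of all genes were below 0. That sign was fixed beforehand, because mutant array 3 held the lowest value in each of the 11. It is therefore not a second result. At number 1, 6 of the 11 were below 0, and at number 2, 4 of the 11. With 1 array per genotype and number, the difference between numbers has no test.

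**Figure D3:**
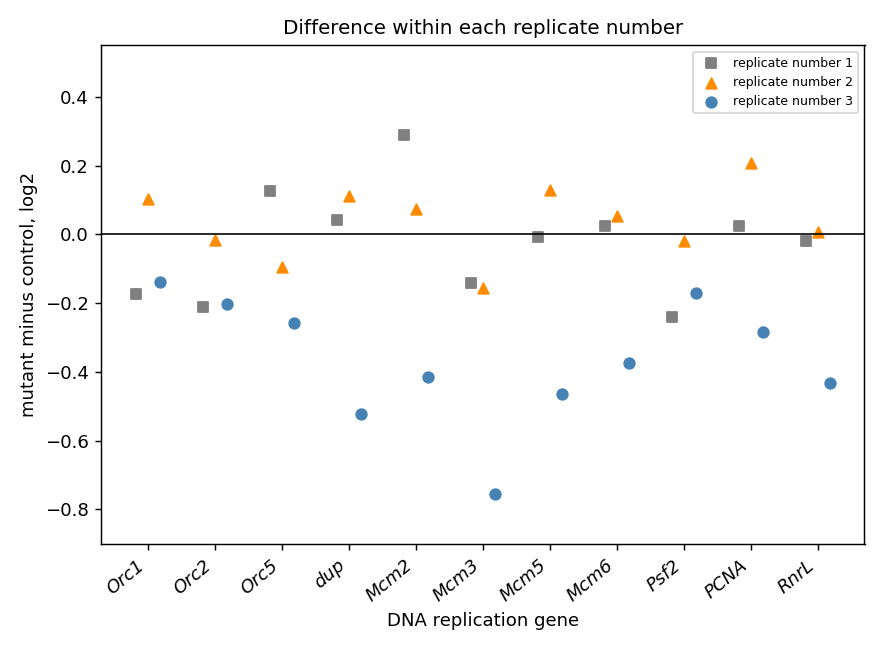
Log2 difference, mutant minus control, for each of 11 DNA replication genes within replicate number 1 (squares), 2 (triangles) and 3 (circles). The circles lie between -0.76 and -0.14, and the squares and triangles lie on both sides of 0.

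Among the cyclin and Cdk genes mutant array 3 was lowest for 2 of the 6, CycE and CycB3, the last by less than 0.01. CycE, whose protein acts with Cdk2 to start DNA synthesis, varied most of the 24 genes, over a range of 1.21. Its log2 values were 7.00, 6.82 and 6.42 in mutant arrays 1 to 3, against 7.63, 6.57 and 7.06 in control arrays 1 to 3. The highest value was that of control array 1, the groups overlapped, and the difference of -0.34 (SE 0.28) became -0.07 without control replicate 1, -0.18 without mutant replicate 3 and 0.06 with array weights. Cdk2, its partner kinase, had 7.32, 7.71 and 7.34 in the mutant, against 7.17, 7.51 and 7.45 in the control. Within each genotype Cdk2 was highest in array 2, and its difference was 0.08 (SE 0.15).

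CycD and Cdk4 form the kinase that promotes growth and cell cycle entry in the fly. CycD was the most even of the 24 genes, with 6.48, 6.49 and 6.46 in the mutant, against 6.53, 6.49 and 6.46 in the control. Its difference of -0.02 had a 95% interval from -0.20 to 0.16. Cdk4 had 8.28, 8.15 and 8.28 in the mutant, against 8.32, 8.29 and 8.42 in the control, and the groups did not overlap, with a difference of -0.11 (SE 0.09).

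CycB and CycB3 encode cyclins that act with Cdk1 in mitosis. CycB had log2 values of 6.56, 6.50 and 6.09 in mutant arrays 1 to 3, against 6.29, 5.97 and 5.94 in control arrays 1 to 3. Mutant was higher than control at each replicate number, by 0.27, 0.53 and 0.15 at numbers 1, 2 and 3, but mutant array 3 lay below control array 1. The difference was 0.31 (SE 0.16, adjusted p = 0.998), and with the replicate block the unadjusted p was 0.0243 and the adjusted p 0.349 (limma, n = 3 per group). CycB3 had 4.95, 4.54 and 4.48 in the mutant, against 4.55, 4.60 and 4.48 in the control, where mutant array 1 stood above the other 5.

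The genes of mitotic exit and chromosome segregation were mostly dim. Of the 24 genes, 5 lay below the array median on all 6 arrays, namely CycB3, aurB, fzy, pim and thr, and differences of such dim probe sets tend to be understated. The replication gene Orc2 lay below the median on 5 of the 6 arrays. The chromosome passenger kinase gene aurB had 4.53, 4.69 and 4.50 in the mutant, against 4.47, 4.65 and 4.68 in the control. The securin gene pim had 4.36, 4.23 and 4.20 in the mutant, against 4.31, 4.43 and 4.53 in the control. Both pairs of groups overlapped. The separase complex gene thr ran the other way from the replication genes. Its values were 3.72, 3.74 and 4.28 in the mutant, against 3.99, 4.10 and 4.16 in the control. Mutant array 3 was the highest of the 6 for thr.

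The activators of the anaphase-promoting complex, which marks cyclins for destruction, were fzy for mitosis and fzr for mitotic exit and endocycles. The used probe set of fzy had 4.32, 4.56 and 4.25 in the mutant, against 4.71, 4.59 and 4.49 in the control, a difference of -0.22 (SE 0.12). Its other 2 probe sets gave differences of the opposite sign, 0.11 (SE 0.12) and 0.13 (SE 0.09), so the probe sets of fzy gave no common direction. For fzr the values were 7.75, 7.45 and 7.59 in the mutant, against 7.70, 7.58 and 7.82 in the control, with a difference of -0.10 (SE 0.11).

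The transcriptional regulators overlapped between the genotypes. Dp, the partner of E2F, had log2 values of 7.40, 7.51 and 7.44 in mutant arrays 1 to 3, against 7.13, 7.56 and 7.58 in control arrays 1 to 3. The lowest of these was control array 1, and the difference was 0.02 (SE 0.14). Rbf, which restrains E2F, had 7.88, 7.84 and 7.47 in the mutant, against 7.62, 7.60 and 7.72 in the control, a difference of 0.09 (SE 0.13). Mutant arrays 1 and 2 were the highest for Rbf and mutant array 3 the lowest.

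Replicate numbers, given in the titles of both genotypes, were compared across them. Arrays of the same number deviated together, least clearly at number 2. This was read from the same values, so the calls below are not separate evidence for it. Between arrays numbered 3 and 1, limma with genotype in the fit called 989 genes, 8.25%, and 0 of the 24. At an unadjusted p under 0.05 were 3 of the 24, CycB with a log2 difference of -0.40 (SE 0.13, adjusted p = 0.115), Orc1 with -0.32 (SE 0.11, adjusted p = 0.157) and thr with 0.36 (SE 0.14, adjusted p = 0.189). Of all genes 26.4% had such a p, a larger share than 3 of 24. All 11 replication genes were lower in arrays numbered 3, with a median difference of -0.22, which became -0.02 without mutant replicate 3. Without that array 14 of the 24 genes were lower, against 18 with it. CycE, at -0.57 (SE 0.24, adjusted p = 0.199), was called when either array numbered 2 was left out (adjusted p = 0.0332), where the remaining array 2 adds nothing to the spread. The count over all genes was 60 without control replicate 3, 126 without control replicate 1 and 139 without mutant replicate 3.

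Between arrays numbered 3 and 2, 59 genes or 0.492% were called, and 0 of the 24 genes. Again all 11 replication genes were lower in arrays numbered 3, with a median of -0.33. At an unadjusted p under 0.05 were 4 of them, RnrL with -0.48 (SE 0.14, adjusted p = 0.194), PCNA with -0.43 (SE 0.14, adjusted p = 0.229), Mcm5 with -0.45 (SE 0.16, adjusted p = 0.260) and Mcm2 with -0.46 (SE 0.18, adjusted p = 0.286). Among the 24 genes these were the 4 with such a p, a share near the 16.8% of all genes. Without mutant replicate 3 none of the 24 had an unadjusted p under 0.05 here. Between arrays numbered 2 and 1, limma called 0 genes, 0%. At an unadjusted p under 0.05 were 1396 genes, 11.6%, and 2 of the 24, Cdk2 and CycE. These comparisons share arrays and are not separate evidence for each other.

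The wider pathway was read from 121 further genes listed by function, of which 106 were measured. Mutant against control, 0 of the 106 were called by limma, with or without the block. At an unadjusted p under 0.05, where 5.27% of all genes lay, were 3 of the 106. These were cal1, a centromere assembly factor, with 0.31 (SE 0.10, adjusted p = 0.739), the checkpoint kinase gene mei-41 with 0.30 (SE 0.11, adjusted p = 0.869), and the spindle checkpoint gene mad2 with -0.25 (SE 0.10, adjusted p = 0.894). Between arrays numbered 3 and 1, 1 of the 106 was called, against 8.25% of all genes. This was tacc, whose protein acts at centrosomes, higher by 0.47 (SE 0.10, limma adjusted p = 0.0494). That call was lost when a gene's probe sets were averaged, without genotype in the fit, and without mutant replicate 3, control replicate 1 or control replicate 3.

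Replication genes outside the 24 were also mostly lowest in mutant array 3. Their lists were written with earlier results of these data known, and the array order was followed after seeing the values. Mutant array 3 was lowest for 28 of 33 such genes, and for 20 of the other 73 pathway genes. Relative to the other 5 arrays the median shift was -0.38 over the 33 genes, -0.03 over the 73, and -0.03 over 26 genes of the mitotic machinery. At replicate number 3 the mutant was lower than the control in 32 of the 33, in 51 of the 73 and in 54.6% of all genes. Among the 73 this held for 12 of 13 genes listed for control of entry into DNA synthesis. Where mutant array 3 was the lowest array, the sign at number 3 was fixed. At number 2 the mutant was lower in 7 of the 33, against 53.7% of all genes. Mutant array 2 was highest for 22 of the 33, against 2092 of all 11983 genes. By limma 0 of the 33 were called in any of the 4 comparisons, of genotypes and of numbers, with 0 at an unadjusted p under 0.05 between mutant and control. Such a p was found for 14 of the 33 between arrays numbered 3 and 2, which include mutant arrays 2 and 3, against 16.8% of all genes. It was found for 2 between arrays numbered 3 and 1, against 26.4% of all genes, and for 2 between arrays numbered 2 and 1, against 11.6%.

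The pre-replication factor Cdc6 had log2 values of 5.51, 5.50 and 4.96 in mutant arrays 1 to 3, against 5.72, 5.80 and 5.33 in control arrays 1 to 3. It was low in both arrays numbered 3, and the difference between arrays numbered 3 and 2 was -0.50 (SE 0.10, adjusted p = 0.119). The clamp loader subunit RfC38 had 7.50, 8.00 and 7.12 in the mutant, against 7.68, 7.82 and 7.38 in the control. Thymidylate synthase, encoded by Ts, had 7.63, 7.97 and 7.20 in the mutant, against 7.89, 7.88 and 7.66 in the control. In these 3 genes control array 3 was also the lowest of its genotype, which held for PCNA, Mcm5, Mcm3, dup, Orc1, Orc5 and RnrL among the 11 as well.

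**Figure D4:**
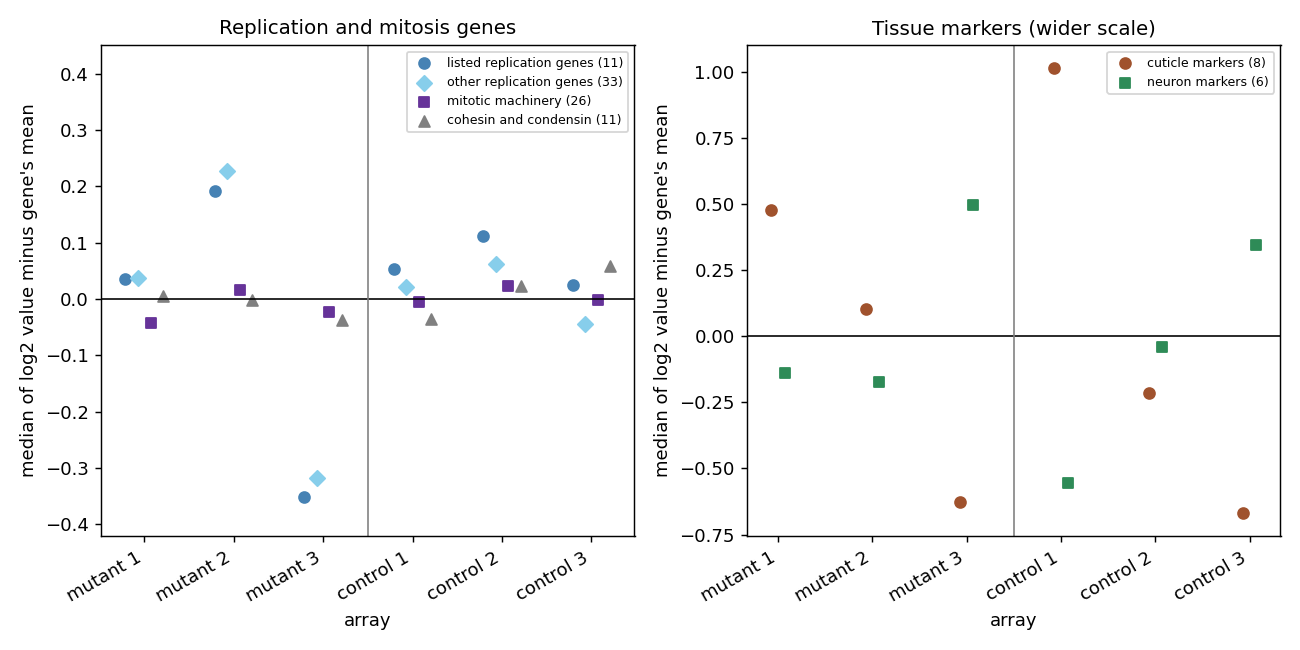
Median deviation of gene groups from each gene's mean over 6 arrays (log2), with mutant arrays left and control arrays right of the grey line; the right panel has a wider scale. The 11 replication genes and 33 other replication genes lie lowest in mutant array 3, mitotic and cohesin and condensin genes stay near 0, and cuticle and neuron markers separate both arrays numbered 3.

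Markers of other tissues moved with the replicate numbers too. Of 8 cuticle markers 6 were called lower in arrays numbered 3 than in arrays numbered 1, against 401 of all 11983 genes. The mean of the cuticle markers lay between 6.94 and 8.25 in the mutant arrays and between 7.11 and 8.74 in the control arrays. Of 6 neuron markers 4 were called higher in arrays numbered 3, against 588 of all 11983 genes. The mean of the neuron markers lay between 7.41 and 8.02 in the mutant and between 7.05 and 7.91 in the control. Both lists were chosen with earlier results of these data known. As median deviations from each gene's mean, cuticle markers stood at -0.63 in mutant array 3 and -0.67 in control array 3, and neuron markers at 0.50 in mutant array 3 and 0.35 in control array 3. The replication genes had -0.35 in mutant array 3 and 0.02 in control array 3.

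Neuroblasts and imaginal cells divide, and their markers were read as lists. The mean of 6 neuroblast markers lay between 4.99 and 5.19 in the mutant and between 5.05 and 5.16 in the control, and that of 5 imaginal markers between 5.80 and 5.88 in the mutant and between 5.59 and 5.83 in the control. As median deviations, neuroblast markers stood at 0.10 in mutant array 3 and 0.11 in control array 3, and imaginal markers at 0.10 in mutant array 3 and 0.04 in control array 3. Single genes went both ways between mutant array 3 and control array 3. Of the 6 neuroblast markers 2 were lower in the mutant, with differences from -0.39 for grh to 0.34 for ase. Of the 5 imaginal markers 2 were lower, with differences from -0.13 for hh to 0.22 for Dll. In mutant array 3 grh had 8.68, and the other neuroblast markers lay between 3.75 and 4.89, below the array median of 5.34. Of the genes of dividing cells among the 24, pim, CycB3 and the used probe set of fzy were lowest in mutant array 3, CycB3 by 0.003. The further probe sets of fzy were lowest in control array 1. CycB, aurB and thr were not lowest in mutant array 3, and thr was highest there. The mean of 6 hemocyte markers lay between 7.00 and 7.03 in the mutant and between 6.98 and 7.07 in the control. In these lists and those of gut, muscle and germline, 0 genes were called by limma in any of the 4 comparisons, with 2 gut markers and 1 germline marker at an unadjusted p under 0.05 between mutant and control. Array values have no true 0, so none of these markers can be said to be absent. Actin signal at the 3′ end exceeded that at the 5′ end, a measure of RNA integrity, by 2.39, 1.53 and 1.63 in mutant arrays 1 to 3, against 2.34, 1.84 and 1.61 in control arrays 1 to 3. For Gapdh it did so by 1.52, 1.11 and 1.13 in the mutant, against 1.52, 1.21 and 1.15 in the control. Both arrays numbered 1 thus stood apart in this measure, which moved with the comparison of numbers 3 and 1. The part of these markers and of RNA integrity in the low replication values, or in the differences between numbers, was not tested.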

How the data were processed

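Gene expression was measured on 6 Affymetrix arrays, 3 per genotype. The deposited log2 values per probe set were made by the authors with RMA, per the submitters' processing notes, in a version not given in the sources used here; the log2 scale was read from the values. RMA gives all arrays nearly 1 distribution, so a shift shared by most genes cannot be seen. Scanner files were not used here.

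The 183 control probe sets among 18952 were dropped. The platform's probe table gives 1 gene for 13647, and keeping the brightest per gene left 11983 genes, with no filter on low values. Sequences and coordinates were not used here. All genes were fitted together in limma 3.58.1 (R 4.3.3) by lmFit and eBayes. Tests were two-sided, p-values were adjusted by Benjamini-Hochberg across the 11983 genes, and a gene was called below 0.05. Replicate numbers were compared with genotype in the fit. The fits were tested on simulated data. Plots used matplotlib 3.10.9. No identical arrays were found. Where nothing says that larvae came from separate crosses, p-values measure only the spread between these samples.

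The correlation of deviations from the genotype means, across genes that are not independent, was 0.684 for the arrays numbered 1, 0.151 for those numbered 2 and 0.756 for those numbered 3. Mutant array 2 correlated more with control array 1, at 0.354, than with control array 2. Each same-numbered pair was above 0.1, and the numbers in the titles were therefore taken to pair the arrays, with number 2 the least clear. The comparison of numbers used the same values, so its calls are not separate evidence for the pairing.

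The genes, pathway and marker lists were chosen with earlier results of these data known. All measured genes of the set may be named, Kdm4A as the target, up to 4 pathway genes per list and comparison by smallest p, and any marker. The order of the arrays among replication genes was followed after seeing the values. Alternatives were quantile normalization, median centring, the upper 60% of genes, array weights, the replicate block, leaving out arrays, other uses of probe sets and a robust prior with a trend.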

Additional observations from a re-analysis of the deposited data

How the results depend on the processing

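No call among the 24 genes appeared between mutant and control under any alternative, the replicate block included, and the block changed no other call among the genes named. Over all genes 19 were called. Leaving out both arrays numbered 1 gave 0, with 441 at an unadjusted p under 0.05, and leaving out single arrays gave 5 to 18. The replicate block gave 98, array weights 82, and a test of the upper 60% alone, a smaller table, 11. The median difference of the 24 genes ranged from -0.14 to 0.024 with 1 array left out, the highest without mutant replicate 3. Between arrays numbered 3 and 1 the count of 989 genes became 0 without genotype in the fit, with 2770 at an unadjusted p under 0.05, and 60 to 1257 with 1 array left out. Of the 24 genes 0 to 1 were then called, and their median difference ranged from -0.31 to -0.013. The count of pathway genes called there, 1, became 0 with probe sets averaged per gene, 2 with array weights, 0 without genotype in the fit, and 0 to 1 with 1 array left out. Mutant array 3 was lowest for 11 replication genes, and for 10 after quantile normalization or median centring. For single genes, the difference moved by more than the spread between replicates in 2 of 354 alternative values between mutant and control and in 23 of 330 between numbers 3 and 1, and changed sign in 27 and 12. The cause was not tested, apart from the constructions named. Dim signal limits what can be seen for CycB3, aurB, fzy, pim and thr, and for Orc2, which was dim on 5 arrays.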
